A study of Mus musculus with 8 samples.

Results

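Potassium channel genes were examined in the cortex of 8-mo-old mice that express mutant human tau, with and without a mutation in the β1-adrenergic receptor. The members were chosen by name and gene type, as the protein-coding genes of the deposited count table whose symbol begins with Kcn, without 4 that are not reported here. No expression value entered this rule, but it was set with earlier results of these data known. This gave 90 genes of 54532 listed, of which 77 passed a filter on low counts and were tested. Bulk RNA-seq was available for 4 PS19 mice and 4 Adrb1-A187V;PS19 mice, with 1 library from each mouse. All 8 mice were of the C57BL/6 strain and housed singly, and all carried the PS19 transgene, which expresses the 1N4R isoform of human tau with the P301S mutation from the mouse prion protein promoter. The second genotype, labelled Adrb1+/m;PS19, also carried 1 copy of Adrb1-A187V, a mutation that was knocked into the mouse gene with CRISPR/Cas9. Mice without the transgene were not part of the comparison, and the study's methods describe controls as littermates and the animals as male unless otherwise noted. Cortex is a mixture of cells, so fewer cells of a type and less RNA per cell cannot be told apart.

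Potassium channels let potassium leave or enter cells and so set the resting potential, shape and end action potentials, and control the firing rate of cortical neurons. Voltage-gated families (Kcna, Kcnb, Kcnc, Kcnd, Kcnh and Kcnq) open on depolarization, and the silent families (Kcnf, Kcng, Kcns and Kcnv) form no channel of their own but join Kcnb subunits and alter them. Inward rectifiers (Kcnj) include channels opened by G proteins in neurons and channels by which astrocytes take up potassium. Two-pore channels (Kcnk) carry the leak current at rest, Kcnma, Kcnn, Kcnt and Kcnu channels are opened by ions inside the cell, and the auxiliary proteins (Kcnab, Kcne, Kcnip, Kcnmb and Kcnrg) modify or assemble the others. The members comprised 27 voltage-gated, 10 silent, 8 ion-activated, 14 inward rectifier, 14 two-pore and 17 auxiliary genes.

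The libraries held between 14653222 and 21223754 counted reads. Levels are given as CPM, the counts scaled to the library size with TMM factors (0.990 to 1.01), and as RPKM, which is CPM per kilobase of the gene length in the deposited table. RPKM is the scale used to rank the members and to form their sums and ratios. Marker sums in CPM and the counts given for overlapping genes are not scaled to gene length. Each of the 7 cortical excitatory neuron markers was detected, and their summed level was 1434 to 1663 CPM in PS19 and 1319 to 1498 CPM in Adrb1-A187V;PS19 mice. By edgeR, 1 of these markers was higher (Foxp2) and 2 were lower (Slc17a7 and Tbr1) in Adrb1-A187V;PS19 mice at an unadjusted p under 0.05, and of 6 interneuron markers 1 was higher (Gad2) and 1 lower (Vip). Of all genes tested, 2.80% had such a p. After Benjamini-Hochberg adjustment over all genes by edgeR, no gene, and so no marker here or below, had an adjusted p under 0.05. The libraries were unequal in markers of neighbouring tissue. The sum of 5 choroid plexus markers ran from 25.1 to 583 CPM and the sum of 7 striatal markers from 769 to 1735 CPM, with both genotypes spread along each range. The sum of 6 markers of basal forebrain cholinergic neurons was 15.2, 30.2, 18.8 and 27 CPM in the PS19 mice and 39.1, 36.3, 32 and 44.5 CPM in the Adrb1-A187V;PS19 mice, and all 6 had an unadjusted p under 0.05 by edgeR. Those sums did not overlap between genotypes, and the part of these markers in the differences below was not tested.

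Promoter sequence was read for the members that had a RefSeq window. RefSeq windows of 250 bases before and 50 bases after a gene's start, on GRCm38.p6, were matched by symbol for 68 of the 90 members. Some genes had more than 1 window, and a motif was counted for a gene if any of its windows held it. A GC box, searched as GGGCGG on both strands, was counted for 63.2% of these members and for 51.0% of all 16497 protein-coding genes with a window. A CCAAT box (CCAAT) was found in 35.3% and 42.1%, a TATA box (TATAAA) in 5.88% and 14.3%, and the cAMP response half-site TGACG in 25.0% and 26.9%. The full cAMP response element TGACGTCA, which contains that half-site, was found for 0 of the 68 members and for 2.64% of all genes with a window. With the highest value over a gene's windows taken, median GC content was 62.7% for the members and 57.7% for all genes with a window. The median ratio of observed to expected CpG, taken likewise, was 0.522 and 0.631. These are descriptions of letters in a window, with no test. Windows of the members with an unadjusted p under 0.05 were examined further, and the 250 bases before the RefSeq start are shown for Kcnf1 and Kcnh2. The window of the other such member, Kcne1l, is 68% GC with 1 GC box and is not printed, since it overlaps an annotated exon. Both lie on the reverse strand and are printed 5′ to 3′ with GC boxes in capitals. The Kcnf1 window (chr12:17176889-17177138) is 51.2% GC and holds 0 GC boxes, whereas the Kcnh2 window (chr5:24329592-24329841), is 73.6% GC and holds 3. This Kcnh2 window lies inside the gene's span in the deposited table and so does not precede the gene's outermost start.
Kcnf1: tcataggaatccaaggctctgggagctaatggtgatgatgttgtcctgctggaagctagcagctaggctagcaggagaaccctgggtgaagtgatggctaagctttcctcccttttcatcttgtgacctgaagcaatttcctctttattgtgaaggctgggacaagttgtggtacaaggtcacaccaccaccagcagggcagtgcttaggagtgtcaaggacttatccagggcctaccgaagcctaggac
Kcnh2: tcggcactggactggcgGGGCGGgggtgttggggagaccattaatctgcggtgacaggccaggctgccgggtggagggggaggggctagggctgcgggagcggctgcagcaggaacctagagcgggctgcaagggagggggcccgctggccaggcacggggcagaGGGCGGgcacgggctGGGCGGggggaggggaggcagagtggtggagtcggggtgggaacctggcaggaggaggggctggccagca

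Across all 8 mice the highest level per length among the potassium channel genes was that of Kcnab2, an auxiliary β-subunit of Kcna channels, at 77.3 ± 3.35 RPKM (mean ± SD, n = 8). Kcnab2 was measured at 74.3, 76.9, 79.1 and 78.3 RPKM in the PS19 mice and at 80.2, 82.5, 74.6 and 72.6 RPKM in the Adrb1-A187V;PS19 mice, listed here and below in the order m677, m668, m665 and m659 for PS19 and m671, m661, m660 and m658 for Adrb1-A187V;PS19. Kcnj4, an inward rectifier of forebrain neurons, followed at 59.4, 74.7, 66.6 and 64.3 RPKM and at 74.3, 63.1, 61.2 and 72.9 RPKM. The ranges of these leading genes overlapped each other, and the lowest Kcnj4 value, 59.4 RPKM, lay above the highest value of the next gene, Kcnip2, at 45.9 RPKM. Among the 20 highest genes that was the one pair of neighbours whose values over the 8 mice did not overlap. Below it came Kcnip2 at 38.2 ± 4.65 RPKM, Kcnj10 at 37.7 ± 2.43 RPKM, Kcnip3 at 37.6 ± 2.03 RPKM, Kcnj9 at 36.2 ± 2.56 RPKM, Kcnk1 at 36 ± 1.26 RPKM and Kcna2 at 32.5 ± 2.06 RPKM. The 10 highest genes held 43.5% of the summed RPKM of all 90, 30 genes had a mean above 10 RPKM, and 24 had a mean below 1 RPKM.

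**Figure D1:**
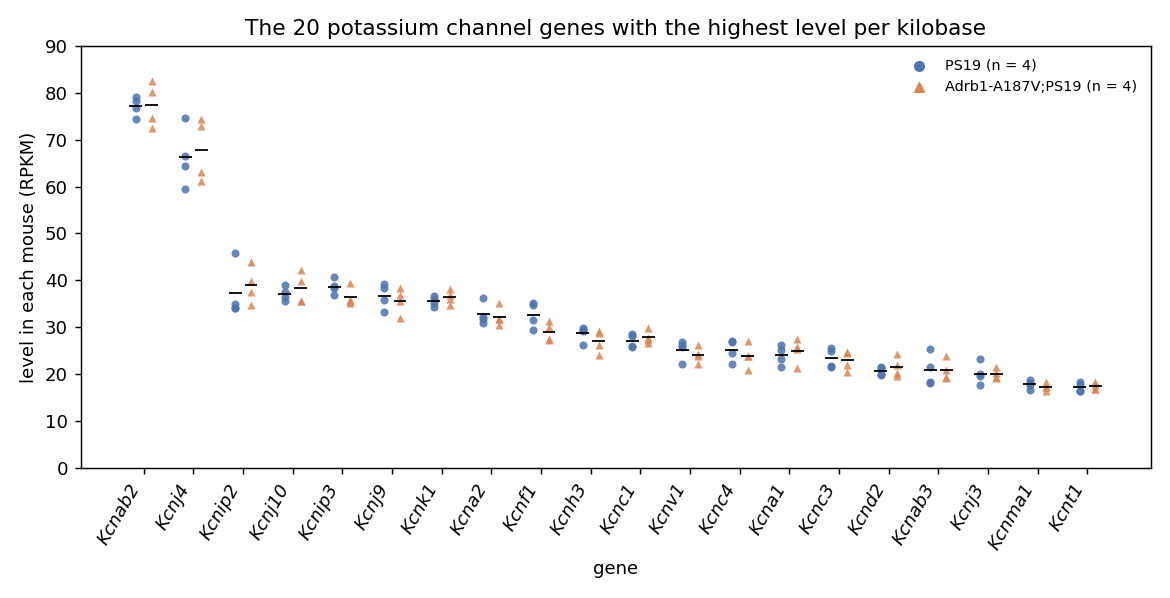
Level in RPKM (y axis) of the 20 potassium channel genes with the highest mean (x axis), 1 point per mouse, circles for PS19 and triangles for Adrb1-A187V;PS19, with a line at each genotype's mean of 4 mice. Kcnab2 and Kcnj4 lie between 59.4 and 82.5 RPKM, the next 18 genes lie at or below 45.9 RPKM, and the genotypes overlap for every gene drawn.

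The summed level of the 90 genes was 968 ± 33.2 RPKM in PS19 mice and 967 ± 27.5 RPKM in Adrb1-A187V;PS19 mice (mean ± SD, n = 4 each). Voltage-gated genes made up 33.4% of it on average over the 8 mice, auxiliary genes 22.3%, inward rectifiers 20.4%, two-pore genes 9.45%, silent genes 9.03% and ion-activated genes 5.49%. The voltage-gated share lay between 32.6% and 34.4% in single mice and the inward rectifier share between 19.9% and 20.9%. For the silent genes, the class with the lowest genotype ratio, the share was 9.24 ± 0.359% in PS19 and 8.83 ± 0.260% in Adrb1-A187V;PS19 mice. In none of the 6 classes did the shares of the genotypes separate.

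**Figure D2:**
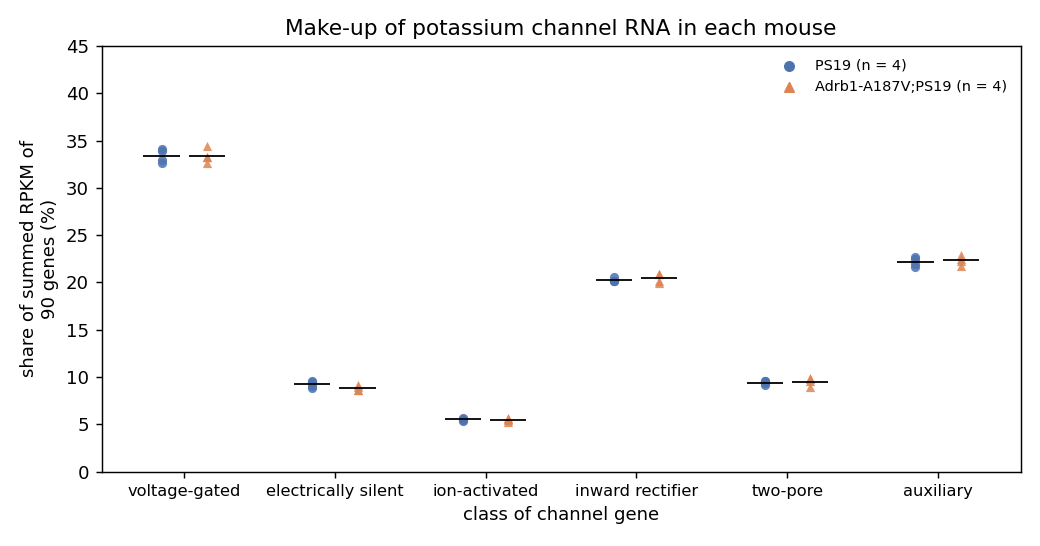
Share of the summed RPKM of the 90 potassium channel genes (y axis, percent) held by each class (x axis), 1 point per mouse, circles for PS19 and triangles for Adrb1-A187V;PS19, with a line at each genotype's mean of 4 mice. Voltage-gated genes hold the most in every mouse and ion-activated genes the least, and the points of the genotypes overlap in all 6 classes.

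The comparison of genotypes asked whether the receptor mutation went with different potassium channel RNA on the tau background. With edgeR's quasi-likelihood test, 3 of the 77 members tested had an unadjusted p under 0.05, which is 3.90% beside 2.80% of all 17195 genes tested. Kcne1l and Kcnh2 were higher in Adrb1-A187V;PS19 mice, where 1.42% of all genes were called higher, and Kcnf1 was lower, where 1.37% were called lower. After Benjamini-Hochberg adjustment over all genes by edgeR, 0 members had an adjusted p under 0.05 (smallest 0.9996), as did 0% of all genes. DESeq2 gave 2 of 89 members an unadjusted p under 0.05 (2.25% beside 1.65% of all genes) and limma-voom 2 of 77 (2.60% beside 2.86%), which were Kcnf1 and Kcne1l with both tools, and neither tool gave an adjusted p under 0.05. The number of members whose mice did not overlap between genotypes in CPM was 0, beside 2.02% of all genes. The log2 fold change, given here and below as Adrb1-A187V;PS19 minus PS19, was above 0 for 40 members and below 0 for 37, with a median of 0.0075 beside 0.00046 for all genes tested. Its median size was 0.069 for the members and 0.068 for all genes tested. The count of members with an unadjusted p under 0.05 ranged from 0 without m671, where 3.60% of all genes were called, to 7 without m661, which is 9.09% of the members beside 3.86% of all genes. It was 1 without m677 (1.30% beside 3.13% of all genes) and 5 without m665 or m658 (6.49% beside 3.47% and 2.60%). Without both m668 and m658, left out together after the data were seen, it was 3 of 76 (3.95% beside 2.71%), and the members were then Kcnn2, Kcna5 and Kcne1l.

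**Figure D3:**
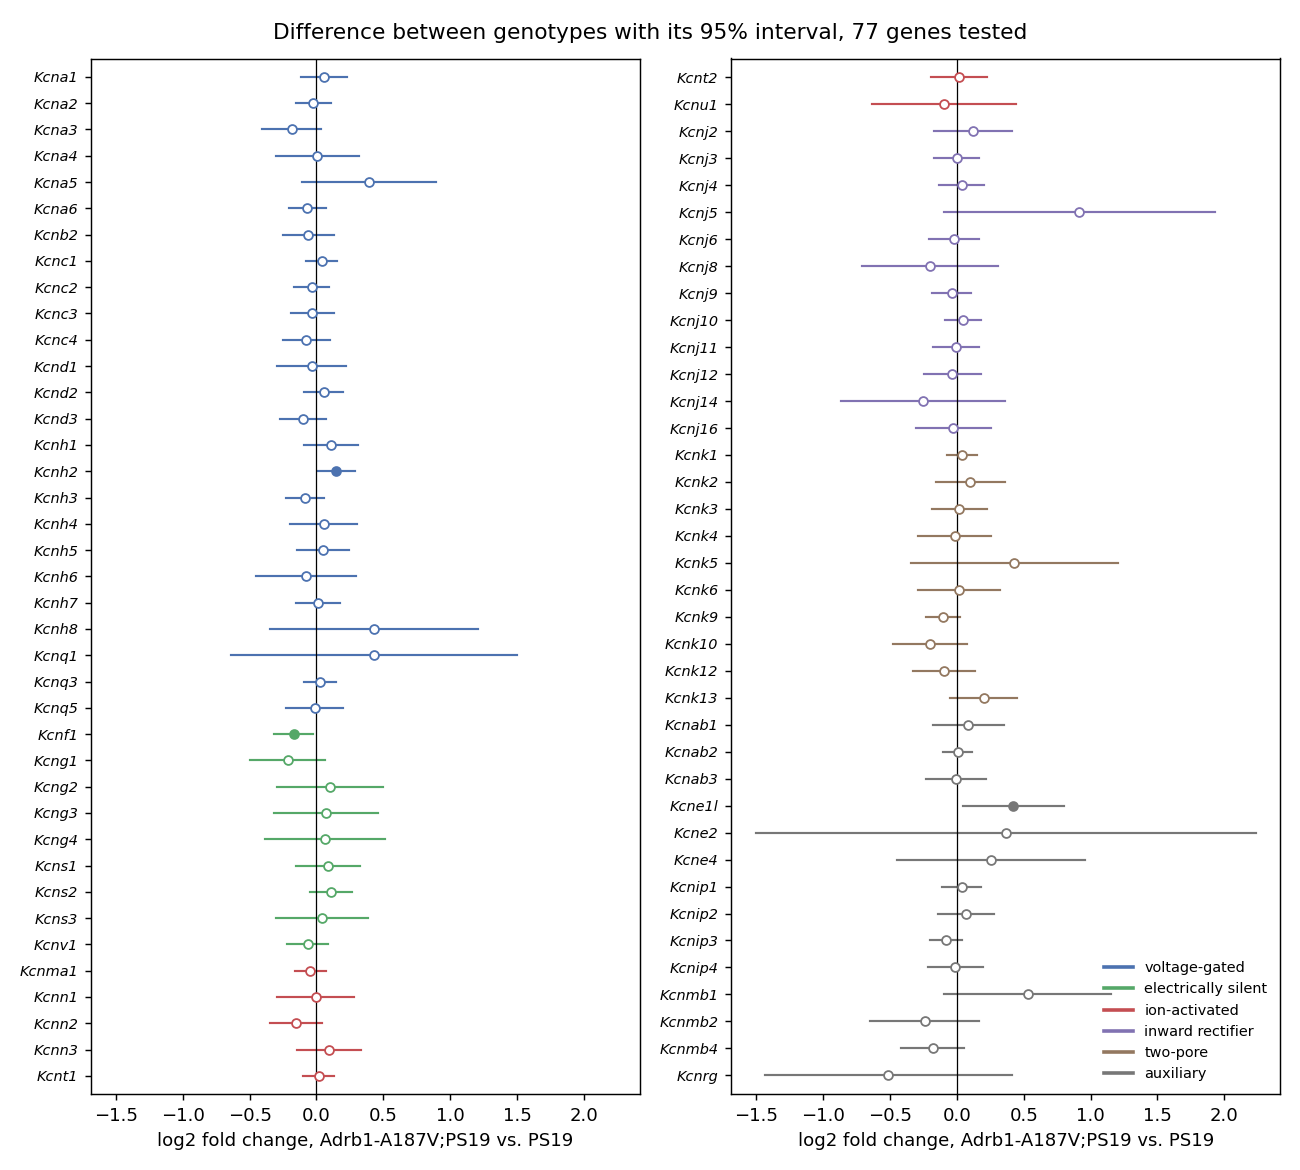
Log2 fold change of Adrb1-A187V;PS19 vs. PS19 mice (x axis) with its 95% interval from edgeR's quasi-likelihood test (4 mice each) for the 77 potassium channel genes tested (y axis), colored by class; filled points have an unadjusted p under 0.05. The intervals of Kcnh2, Kcnf1 and Kcne1l exclude 0, the other 74 include it, and the widest are those of genes with few counts.

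How small a difference could be seen depended on the level. Of the 56 members with a mean of at least 10 CPM, whose standard errors were 0.051 to 0.15 on the log2 scale, 33 had a 95% interval that lay wholly within a 1.2-fold difference in either direction. Among the other 21 members tested, with standard errors of 0.13 to 0.87, that number was 0. Of all members tested, 42.9% had such an interval, beside 41.6% of all genes tested. At 10 CPM or more the fitted log2 fold changes ran from -0.22 for Kcng1 to 0.20 for Kcnk13. A mean of at least 10 CPM was reached by 72.7% of the members tested and 60.7% of all genes tested.

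Kcnf1 (ENSMUSG00000051726; GRCm38 chromosome 12, 17172100 to 17176888, reverse strand) encodes a silent subunit that joins Kcnb channels. Its level was 141, 168, 151 and 166 CPM in the PS19 mice m677, m668, m665 and m659 and 131, 150.3, 131 and 143 CPM in the Adrb1-A187V;PS19 mice m671, m661, m660 and m658. All 4 mutant values lay below the PS19 values of m668 and m659, and the genotypes overlapped through m677, which lay below the mutant mice m661 and m658. The mean was 157 ± 13.1 CPM in PS19 and 139 ± 9.49 CPM in Adrb1-A187V;PS19 mice, and the log2 fold change was -0.17 (SE 0.068; edgeR, p = 0.026; 2-sided exact permutation test of CPM, p = 0.114, where the smallest possible value is 0.0286). Leaving out m668, m659, m671 or m660 moved edgeR's p to 0.080, 0.081, 0.071 and 0.078.

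Kcne1l (ENSMUSG00000090122; GRCm38 chromosome X, 142304752 to 142306294, reverse strand), also known as Kcne5, encodes a small membrane protein of the Kcne family, which modulates Kcnq and other voltage-gated channels. It had few reads, with 52 to 107 counts a mouse. Its level was 3.61, 3.59, 3.21 and 4.40 CPM in the PS19 mice m677, m668, m665 and m659 and 5.04, 4.50, 5.99 and 4.30 CPM in the Adrb1-A187V;PS19 mice m671, m661, m660 and m658. The groups overlapped through m659, whose value lay just above that of m658. The mean was 3.70 ± 0.499 CPM in PS19 and 4.96 ± 0.755 CPM in Adrb1-A187V;PS19 mice, and the log2 fold change was 0.42 (SE 0.17; edgeR, p = 0.030; 2-sided exact permutation test, p = 0.0571). Without m677, m668, m665, m671 or m660, edgeR's p was 0.055, 0.055, 0.082, 0.053 and 0.11.

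Kcnh2 (ENSMUSG00000038319; GRCm38 chromosome 5, 24319589 to 24351604, reverse strand) encodes the channel known as ERG1, which also carries the delayed rectifier current of the heart. Its level was 40.7, 42, 45.1 and 42 CPM in the PS19 mice m677, m668, m665 and m659 and 51.9, 44.7, 46.2 and 45.6 CPM in the Adrb1-A187V;PS19 mice m671, m661, m660 and m658. The mutant mouse m671 was highest, and the other mutant mice lay close to the highest PS19 mouse, m665. The mean was 42.4 ± 1.88 CPM in PS19 and 47.1 ± 3.29 CPM in Adrb1-A187V;PS19 mice, and the log2 fold change was 0.15 (SE 0.066; edgeR, p = 0.040; 2-sided exact permutation test, p = 0.0571). DESeq2's p was 0.057 and limma-voom's 0.051, and without m677, m668, m659, m671 or m660 edgeR's p was 0.096, 0.071, 0.077, 0.14 and 0.056. Without m671 the log2 fold change was 0.099.

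**Figure D4:**
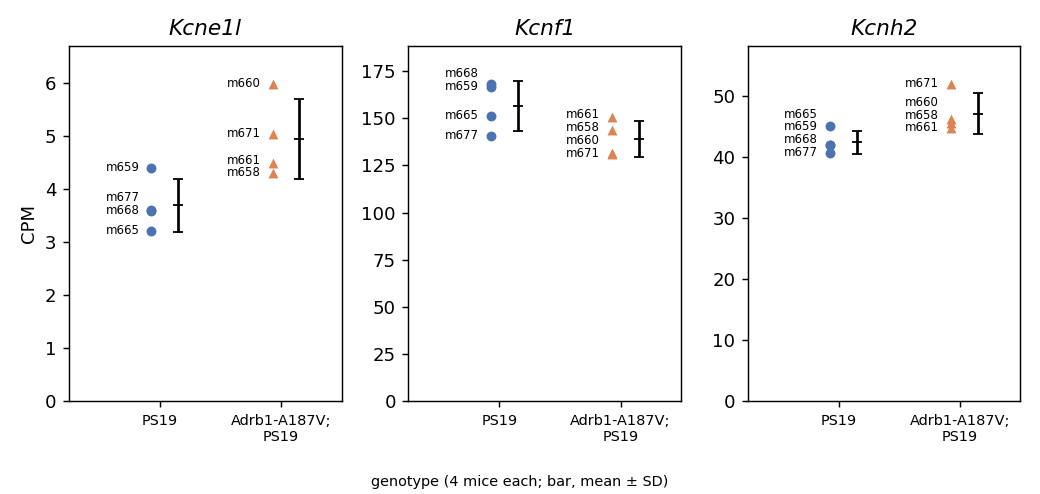
CPM (y axis) of the 3 potassium channel genes with an unadjusted p under 0.05 in PS19 and Adrb1-A187V;PS19 mice (x axis), 1 labelled point per mouse, with bars for the mean ± SD of 4 mice. For Kcne1l the mutant value of m658 (4.30 CPM) lies below the PS19 value of m659 (4.40 CPM), and for Kcnf1 and Kcnh2 the genotypes also overlap.

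Among the 25 voltage-gated genes tested, the log2 fold change was above 0 for 13 and below 0 for 12, and Kcnh2 alone had an unadjusted p under 0.05. Kcnq3, a subunit of the M-current that restrains repetitive firing, was measured at 224, 259, 240.1 and 251 CPM in the PS19 mice and 244, 239.8, 243 and 265 CPM in the Adrb1-A187V;PS19 mice. These values overlapped, and the log2 fold change was 0.026 (95% interval -0.094 to 0.15). Kcnq5, another M-current subunit, averaged 109 ± 16.7 CPM in PS19 and 108 ± 11.1 CPM in Adrb1-A187V;PS19 mice (interval -0.23 to 0.20).

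Of the Shaker-related Kcna genes, Kcna2, an axonal delayed rectifier, was highest at 32.5 ± 2.06 RPKM, with 390.3 ± 28.7 CPM in PS19 and 384 ± 23.7 CPM in Adrb1-A187V;PS19 mice (95% interval of the log2 fold change, -0.15 to 0.11). Kcnb2, a delayed rectifier, averaged 37.2 ± 4.04 CPM in PS19 and 35.8 ± 3.40 CPM in Adrb1-A187V;PS19 mice (interval -0.25 to 0.13). Kcnc1, which lets interneurons fire fast, was measured at 245, 245, 269 and 266 CPM in the PS19 mice and 282, 262, 252 and 258 CPM in the Adrb1-A187V;PS19 mice. The highest Kcnc1 value was that of the mutant mouse m671 and the others overlapped, with an interval of -0.076 to 0.16. Kcnd2, the main subunit of the dendritic A-type current, averaged 107 ± 4.54 CPM in PS19 and 111 ± 10.8 CPM in Adrb1-A187V;PS19 mice (interval -0.091 to 0.20). Kcnh3, a forebrain gene of the EAG family, averaged 165 ± 9.44 CPM in PS19 and 156 ± 13.9 CPM in Adrb1-A187V;PS19 mice (interval -0.23 to 0.060). The summed levels of the Kcna, Kcnc and Kcnd families were within 1 SD of each other between genotypes, at 88.3 ± 5.51 RPKM in PS19 and 87.7 ± 5.10 RPKM in Adrb1-A187V;PS19 mice for Kcna, 93 ± 4.99 RPKM in PS19 and 91.5 ± 6 RPKM in Adrb1-A187V;PS19 mice for Kcnc and 32.4 ± 0.490 RPKM in PS19 and 32.5 ± 2.16 RPKM in Adrb1-A187V;PS19 mice for Kcnd. In other classes, the sums of Kcne, Kcnf and Kcnmb differed between genotypes by more than either SD, with values that overlapped. For Kcne the sum was 3.70 ± 0.786 RPKM in PS19 and 4.74 ± 0.954 RPKM in Adrb1-A187V;PS19 mice. In the same order it was 32.7 ± 2.74 and 29.0 ± 1.98 RPKM for Kcnf, which is Kcnf1 alone. For Kcnmb it was 4.97 ± 0.306 and 4.43 ± 0.402 RPKM.

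Kcnq1, best known from heart and epithelia, stood apart within its family at 0.209 ± 0.117 RPKM, with 4 to 37 counts a mouse. Its values were 0.245, 0.828, 0.944 and 0.903 CPM in the PS19 mice and 1.08, 1.77, 0.280 and 0.792 CPM in the Adrb1-A187V;PS19 mice, with the mutant mouse m661 highest and m677 and m660 lowest. The antisense transcript Kcnq1ot1 lies over the same locus with a mean of 810 counts beside 15.6 for Kcnq1. Whether their exons share bases was not examined, and without a stated strand setting reads of any shared bases cannot be told apart.

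Of the 9 silent genes tested, 6 had a log2 fold change above 0 and 3 below 0. Kcnf1 was the highest of them per length at 30.9 ± 2.95 RPKM, and Kcnv1 followed at 24.7 ± 1.89 RPKM. Kcnv1 averaged 116 ± 9.94 CPM in PS19 and 111 ± 7.64 CPM in Adrb1-A187V;PS19 mice (interval -0.22 to 0.085), and Kcns1 averaged 24.1 ± 2.87 CPM in PS19 and 25.6 ± 3.66 CPM in Adrb1-A187V;PS19 mice (interval -0.15 to 0.32). Kcng1 was measured at 28.7, 40.7, 26.8 and 31.2 CPM in the PS19 mice and 28.3, 22.8, 25.8 and 32.7 CPM in the Adrb1-A187V;PS19 mice, with the PS19 mouse m668 highest and the mutant mouse m661 lowest. Its log2 fold change was -0.22 (SE 0.13; edgeR, p = 0.12; 2-sided exact permutation test, p = 0.286). Without m665 edgeR's p was 0.046, and without m658 it was 0.034. With any other single mouse left out, edgeR's p for Kcng1 stayed at 0.05 or more. The log2 fold change of Kcng1 was -0.079 without m668 and -0.13 without m661. With each of the other mice left out in turn it lay between -0.31 and -0.19. Thus the members of this class did not share a direction, since all 3 Kcns genes were above 0 (0.040 to 0.11) and Kcnf1, Kcng1 and Kcnv1 were below 0.

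Among the 7 ion-activated genes tested, 3 were above 0 and 4 below 0. Kcnma1, the large-conductance channel opened by calcium and voltage, averaged 302 ± 15.6 CPM in PS19 and 293 ± 13.8 CPM in Adrb1-A187V;PS19 mice (interval -0.16 to 0.069), and Kcnt1, a channel opened by sodium, averaged 163 ± 9.31 CPM in PS19 and 165 ± 6.71 CPM in Adrb1-A187V;PS19 mice (interval -0.10 to 0.13). Both intervals lay within a 1.2-fold difference. Kcnn2, a small-conductance channel that mediates the afterhyperpolarization, was measured at 36.2, 27.5, 34.5 and 32.1 CPM in the PS19 mice and 26.3, 28.5, 30.6 and 32 CPM in the Adrb1-A187V;PS19 mice. The lowest values were those of the mutant mouse m671 and the PS19 mouse m668, and the log2 fold change was -0.15 (SE 0.092; edgeR, p = 0.12; 2-sided exact permutation test, p = 0.200). Without m668 the log2 fold change of Kcnn2 was -0.22 and edgeR's p was 0.019, and without both m668 and m658, the mice with the highest choroid plexus markers, these were -0.27 and 0.0096. Leaving out any other mouse alone left edgeR's p for Kcnn2 at 0.05 or more. Kcnu1, a relative of Kcnma1 known from sperm, was low at 0.784 ± 0.201 RPKM.

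Inward rectifiers had 12 members tested, 4 above 0 and 8 below 0, and none passed at an unadjusted p of 0.05. Kcnj10, the Kir4.1 subunit by which astrocytes take up potassium, was measured at 197, 192, 211 and 203 CPM in the PS19 mice and 192, 193, 228 and 215 CPM in the Adrb1-A187V;PS19 mice. The highest values were those of the mutant mice m660 and m658, and the interval of the log2 fold change was -0.088 to 0.18. Its partner Kcnj16 (Kir5.1) averaged 27.5 ± 4.98 CPM in PS19 and 27 ± 4.14 CPM in Adrb1-A187V;PS19 mice (interval -0.31 to 0.26), and the ratio of Kcnj16 to Kcnj10 in RPKM was 0.189 ± 0.0361 in PS19 and 0.179 ± 0.0153 in Adrb1-A187V;PS19 mice. This ratio ran from 0.142 to 0.224 over the 8 mice, with both ends in PS19 mice. Kcnj8, the Kir6.1 subunit known from pericytes and vascular muscle, averaged 3.70 ± 0.451 CPM in PS19 and 3.24 ± 1.05 CPM in Adrb1-A187V;PS19 mice (interval -0.71 to 0.31).

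The G protein-gated subunits (GIRK channels) include Kcnj3, Kcnj6 and Kcnj9, through which several neurotransmitter receptors hyperpolarize neurons. Kcnj9 was the highest of them at 36.2 ± 2.56 RPKM, followed by Kcnj3 at 20.1 ± 1.71 RPKM and Kcnj6 at 3.46 ± 0.280 RPKM, and these ranges did not overlap. Kcnj3 averaged 105 ± 12.4 CPM in PS19 and 105 ± 5.63 CPM in Adrb1-A187V;PS19 mice (interval -0.17 to 0.16), and Kcnj6 averaged 26.6 ± 2.14 CPM in PS19 and 26.2 ± 2.44 CPM in Adrb1-A187V;PS19 mice (interval -0.21 to 0.17). The ratio of Kcnj3 to Kcnj9 was 0.550 ± 0.0577 in PS19 and 0.565 ± 0.0340 in Adrb1-A187V;PS19 mice, and that of Kcnj6 to Kcnj9 was 0.0960 ± 0.0137 in PS19 and 0.0966 ± 0.00996 in Adrb1-A187V;PS19 mice. Kcnj5, the subunit known from heart, was near the limit of detection at 0.612, 0.276, 0.236 and 0.903 CPM in the PS19 mice and 1.02, 1.197, 0.392 and 1.19 CPM in the Adrb1-A187V;PS19 mice. Its log2 fold change was 0.92 (SE 0.47; edgeR, p = 0.073; 2-sided exact permutation test, p = 0.114), with 4 to 25 counts a mouse. Without m659 edgeR's p was 0.021, and without m660 it was 0.023. Leaving out any other mouse alone left edgeR's p for Kcnj5 at 0.05 or more. Kcnj4 averaged 143 ± 13.7 CPM in PS19 and 146 ± 14.4 CPM in Adrb1-A187V;PS19 mice (interval -0.14 to 0.21).

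Two-pore channels had 10 members tested, 6 above 0 and 4 below 0. Kcnk1 (TWIK1), the highest per length, varied little and averaged 79.4 ± 2.21 CPM in PS19 and 81.5 ± 3.30 CPM in Adrb1-A187V;PS19 mice (interval -0.076 to 0.15). Its coefficient of variation over the 8 mice, 3.50%, was the second lowest among the members at 10 CPM or more, after 3.004% for Kcnip1. Kcnk9 (TASK3), an acid-sensitive leak channel, was measured at 123, 127, 128 and 132 CPM in the PS19 mice and 109.8, 130.4, 119.7 and 114 CPM in the Adrb1-A187V;PS19 mice. The lowest values were those of the mutant mice m671 and m658, while the mutant mouse m661 lay among the PS19 mice. The log2 fold change of Kcnk9 was -0.11 (SE 0.059; edgeR, p = 0.092; 2-sided exact permutation test, p = 0.114). Without m661 it was -0.16 and edgeR's p was 0.016. Leaving out any other mouse alone left edgeR's p for Kcnk9 at 0.05 or more. The ratio of Kcnk3, its closest relative, to Kcnk9 in RPKM was 0.671 ± 0.0764 in PS19 and 0.738 ± 0.0881 in Adrb1-A187V;PS19 mice.

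Of the 14 auxiliary genes tested, 8 were above 0 and 6 below 0. Kcnab2 averaged 430.4 ± 11.8 CPM in PS19 and 432 ± 25.9 CPM in Adrb1-A187V;PS19 mice, with an interval of -0.10 to 0.12, among the narrowest of all members. Kcnip2, a calcium-binding subunit of Kcnd channels, was measured at 119, 159, 118 and 122 CPM in the PS19 mice and 153, 120.5, 131 and 139 CPM in the Adrb1-A187V;PS19 mice. In PS19 mice the value of m668 lay far above the other 3, and the log2 fold change was 0.067 (SE 0.096; edgeR, p = 0.50; 2-sided exact permutation test, p = 0.600). Without that mouse it was 0.18 and edgeR's p was 0.031. Kcnmb4, the β-subunit that slows neuronal Kcnma1 channels, was measured at 11.8, 11.6, 11 and 10.9 CPM in the PS19 mice and 10.5, 11.1, 9.74 and 8.55 CPM in the Adrb1-A187V;PS19 mice. Its values were lowest in the mutant mouse m658, and the log2 fold change was -0.18 (SE 0.11; edgeR, p = 0.12; 2-sided exact permutation test, p = 0.0857). The ratio of Kcnmb4 to Kcnma1 in RPKM was 0.192 ± 0.0161 in PS19 and 0.174 ± 0.0188 in Adrb1-A187V;PS19 mice. Kcnrg, whose protein hinders channel assembly, was measured at 1.16, 0.345, 1.46 and 0.663 CPM in the PS19 mice and 0.420, 0.814, 0.840 and 0.509 CPM in the Adrb1-A187V;PS19 mice, beside an overlapping transcript on the other strand, Dleu2, with a mean of 172 counts against 14.3 for Kcnrg.

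Proteins that bind these channels but bear other names were followed as a list of 17 genes, of which 16 were tested and Lrrc52 was not. With edgeR, 8 were above 0, 8 below 0 and 0 had an unadjusted p under 0.05, and their median log2 fold change was 0.0043. Dpp6 and Dpp10, which speed Kcnd channels, averaged 217 and 188 CPM in PS19 and 229.8 and 178 CPM in Adrb1-A187V;PS19 mice. Cntnap2 and Lgi1, which act with axonal Kcna channels, averaged 129 and 109 CPM in PS19 and 136 and 107 CPM in Adrb1-A187V;PS19 mice.

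Some members varied widely between mice of the same genotype. Among genes with a mean of at least 10 CPM, the median coefficient of variation over the 8 mice was 9.52% for the members and 7.21% for all genes tested. That measure mixes the genotypes and is not matched on level. The biological coefficient of variation, edgeR's estimate of the spread between mice of a genotype, had a median of 0.099 for the members tested and 0.101 for all genes tested. The most variable of the 77 members tested were Kcne2 (120.5%), Kcnq1 (56%), Kcnj5 (55%) and Kcnrg (49.2%), each with few reads. Kcne2, a subunit known from the choroid plexus epithelium, was measured at 0.612, 2.14, 0.0944 and 1.81 CPM in the PS19 mice and 0.300, 0.335, 0.448 and 4.75 CPM in the Adrb1-A187V;PS19 mice. It was highest in m658, m668 and m659, which were also the mice with the highest sums of choroid plexus markers, at 583, 367 and 146 CPM. In the other 5 mice that sum was 25.1 to 74.3 CPM and Kcne2 was at most 0.612 CPM. Most of the sum in m658, m668 and m659 was Ttr, at 526, 340 and 129 CPM. Ttr and Kl were highest in these mice. Folr1, Clic6 and Otx2 were highest in m658 and m668 but not raised in m659, at 0.723, 4.28 and 0.482 CPM. The part of these markers in the Kcne2 values was not tested, and the log2 fold change of Kcne2 between genotypes was 0.37 with a 95% interval of -1.50 to 2.23, or -1.62 without m658.

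Kcnj16 was measured at 30.01, 25.1, 21.9 and 33.1 CPM in the PS19 mice and 24.4, 22.6, 30.1 and 31 CPM in the Adrb1-A187V;PS19 mice. The highest values belonged to m659, m658, m660 and m677, which are a pair of mice of each genotype. Gfap, the intermediate filament of astrocytes, was measured at 748, 257, 219.6 and 827 CPM in the PS19 mice and 354, 182, 838 and 752 CPM in the Adrb1-A187V;PS19 mice, and the same 4 mice were highest. The sum of the 7 astrocyte markers had the same 4 mice on top, from 5796 to 6102 CPM beside 5015 to 5165 CPM in the others. Kcnj10 did not follow this order in full, since m665 (211 CPM) exceeded m677 (197 CPM) and m659 (203 CPM). Kcnj2, an inward rectifier named here after its values were seen, was also highest in those 4 mice, at 31.5, 23, 24 and 31.9 CPM in the PS19 mice and 27.2, 24.6, 30.7 and 37.5 CPM in the Adrb1-A187V;PS19 mice. Of the 7 astrocyte markers, Gfap, Aqp4 and Gja1 had these 4 mice on top. Slc1a2, Slc1a3, Aldoc and Aldh1l1 did not, and Aldh1l1 was highest in m661 (68.5 CPM) and m671 (65.3 CPM). The sum of 5 microglial markers was also highest in these 4 mice, at 356 to 415 CPM beside 265 to 325 CPM in the others. The part of astrocyte or microglial markers in the levels of Kcnj16 and Kcnj2 was not tested.

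A few other members, also named after their values were seen, had high values in the mice with the most striatal marker RNA, m671 and m668. The sum of 7 striatal markers was 769, 1567, 1131 and 831 CPM in the PS19 mice and 1735, 798, 1198 and 1434 CPM in the Adrb1-A187V;PS19 mice. Kcnab1, a β-subunit of Kcna channels, was measured at 116, 161, 146 and 104 CPM in the PS19 mice and 166, 120.0, 132 and 143 CPM in the Adrb1-A187V;PS19 mice. Kcna4, an A-type Kcna channel, was measured at 26.6, 41.3, 34.9 and 23.8 CPM in the PS19 mice and 37.2, 28.3, 29.8 and 32 CPM in the Adrb1-A187V;PS19 mice. Both were highest in m671 and m668, and both were lowest in m659 and m677. Kcnk2 (TREK1), a mechanosensitive leak channel, was measured at 59.7, 79.1, 61.6 and 64.6 CPM in the PS19 mice and 78.3, 52.6, 74 and 79.2 CPM in the Adrb1-A187V;PS19 mice, with m658, m668 and m671 highest. None of these 3 had an unadjusted p under 0.05 between genotypes by edgeR, whose p was 0.50 for Kcnab1, 0.96 for Kcna4 and 0.42 for Kcnk2, and the part of striatal markers in their levels was not tested.

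**Figure D5:**
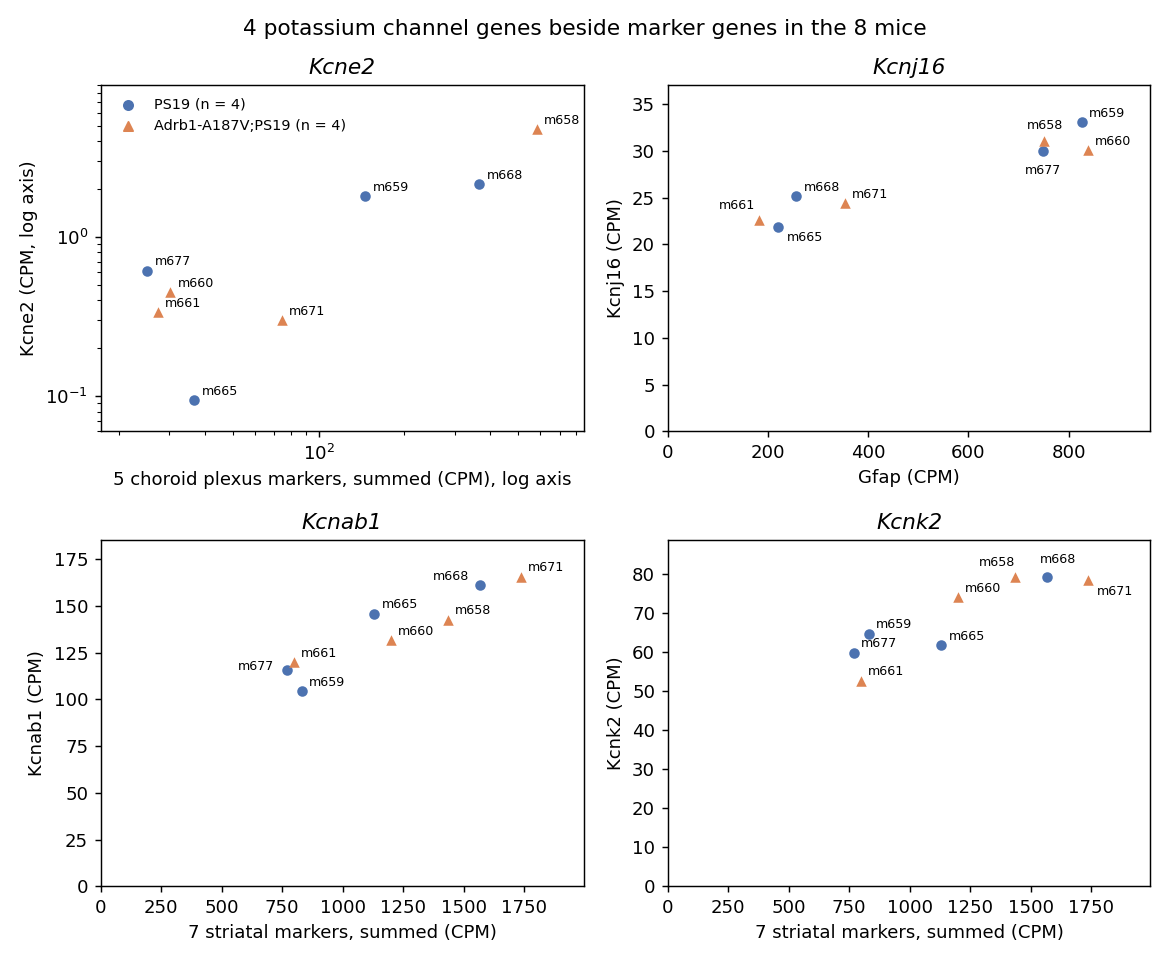
CPM of 4 potassium channel genes (y axes) against marker genes (x axes) in each of the 8 mice, circles for PS19 and triangles for Adrb1-A187V;PS19; the panel of Kcne2 against 5 summed choroid plexus markers has log axes, and the panels of Kcnj16 against Gfap and of Kcnab1 and Kcnk2 against 7 summed striatal markers have linear axes. Kcne2 is highest in m658, m668 and m659, Kcnj16 is highest in 4 mice of both genotypes with at least 748 CPM of Gfap, and Kcnab1 is highest in m671 and m668.

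The 13 members that were not tested were Kcna7, Kcna10, Kcne1, Kcne3, Kcnj1, Kcnj15, Kcnk7, Kcnk15, Kcnk16, Kcnk18, Kcnmb3, Kcnn4 and Kcnv2. None reached more than 13 counts in a mouse, and their sums over the 8 mice ran from 0 to 61. Kcnj1, the kidney channel ROMK, had 0 counts in all 8 mice. Kcnn4, the intermediate-conductance channel of blood and immune cells, was measured at 0.490, 0.483, 0.614 and 0.241 CPM in the PS19 mice and 0.360, 0.431, 0.336 and 0.453 CPM in the Adrb1-A187V;PS19 mice, all below 1 CPM. The filter left these 13 genes out of the main fit. DESeq2 and edgeR with no filter beyond 1 count each tested 89 members, all but Kcnj1. Neither gave any of these genes an unadjusted p under 0.05. The gene bodies of several tested members overlap other genes on the opposite strand, among them Kcnh3 with Mcrs1 (mean 1156 counts), Kcnk3 with Gm9899 (316 counts), Kcnmb4 with Kcnmb4os2 (48 counts) and Kcnmb1 with Kcnip1 (433 counts, beside 20.1 for Kcnmb1). These overlaps are of whole gene spans, and shared exon sequence was not examined. Their counts are therefore uncertain to an extent that is not known.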

How the data were processed

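Total RNA from the cortex of 8 mice was sequenced by the authors with paired ends. Clean reads were aligned to GRCm38 with HISAT2 2.0.5, and the authors deposited unnormalized counts per Ensembl gene from featureCounts 1.5.0-p3. The strand setting is not given in the sources used here. Gene names, coordinates and lengths are those of the deposited table.

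From these counts, genes were kept with filterByExpr, scaled with TMM and compared in R 4.3.3 with the quasi-likelihood test of edgeR 4.0.16 (2-sided, all 8 mice, genotype as the sole term). CPM and RPKM use the TMM-scaled library size. The standard error is the log2 fold change divided by the square root of F. The mice are separate animals. The unadjusted p under 0.05 follows the study's selection, and edgeR replaced its DESeq2 test, which is an alternative here.

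The members, lists, rules and alternatives were chosen with earlier results of these data known. Named genes were the members with an unadjusted p under 0.05, the highest member per length of each subfamily, the 4 most variable members tested, and 12 genes of the M-current, glial, GIRK and similar groups (32 in all). Alternatives were DESeq2 1.42.0, limma-voom (limma 3.58.1), DESeq2's size factors, no filter, a stricter one (10 counts or more in each mouse), a fit to protein-coding genes, 1 surrogate variable (sva 3.50.0), each mouse left out and, added after the data were seen, both choroid-rich mice left out. The fit was tested on simulated counts. A search of proteins for the pore signature was planned and not run, since protein sequences were not used here. Another 4 genes with the same name start are not reported here and are in no count or sum of members.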

Additional observations from a re-analysis of the deposited data

Results flagged for a closer look

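In 5 of 96 groups of 4 mice examined, over the named genes and the subfamily sums, 1 mouse lay far from the other 3. For separate groups not picked for their spread, chance alone gives this in about 1 of 20. That rate cannot be applied here, since Kcne2 and Kcnq1 were named for varying most over these mice and the sums contain named genes. Kcne2 in Adrb1-A187V;PS19 mice was 4.75 CPM in m658 and 0.300 to 0.448 CPM in the other 3, a gap that made up 0.967 of the whole range. The 5 choroid plexus markers summed to 583 CPM in that mouse and to at most 74.3 CPM in the other 3, and their part in the Kcne2 value was not tested. Kcnip2 in PS19 mice was 159 CPM in m668 and 118 to 122 CPM in the others (0.921 of the range), and m668 had the highest striatal marker sum of its genotype. Kcnq3 in Adrb1-A187V;PS19 mice was 265 CPM in m658 and 239.8 to 244 CPM in the others (0.841 of the range). The summed level of the Kcnq genes reported here (Kcnq1, Kcnq3 and Kcnq5) in Adrb1-A187V;PS19 mice was 28.7 RPKM in m660 and 31.8 to 32.0 RPKM in the others (0.927 of the range). Kcnq1 in PS19 mice was 0.245 CPM in m677 and 0.828 to 0.944 CPM in the others (0.834 of the range), from 4 counts in that mouse.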

How the results depend on the processing

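The count of members with an unadjusted p under 0.05, 3 in the text, was 2 or 3 with limma-voom, DESeq2 or its size factors, with a stricter filter (10 counts or more in each mouse), with protein-coding genes only, with 1 surrogate variable, and without the 2 mice with the highest choroid plexus markers, an alternative added after the data were seen. The share of members was 3.90% beside 2.79% of all genes tested with the size factors and 4.17% beside 2.86% with the stricter filter. It was 3.90% beside 2.71% with protein-coding genes only and 3.90% beside 3.56% with the surrogate variable. With no filter beyond 1 count it was 5 (Kcnf1, Kcna5, Kcng1, Kcne1l and Kcnj5), which is 5.62% beside 4.06% of all genes (1366 of 33614). Leaving out 1 mouse gave 0 to 7 members, with Kcnf1, Kcnk9, Kcnk13, Kcnk2, Kcne1l, Kcnh2 and Kcnip3 called without m661, beside 2.47% to 3.86% of all genes, and 0 to 7 members whose genotypes did not overlap, beside 3.69% to 5.02% of all genes; the cause was not tested. Kcnf1 and Kcne1l kept an unadjusted p under 0.05 in all 7 alternatives that used all 8 mice, and Kcnh2 did in 4, missing it with DESeq2, limma-voom and no filter (p of 0.057, 0.051 and 0.051). Leaving out 1 mouse turned the sign of several log2 fold changes, with ranges of -0.067 to 0.030 for Kcna2, -0.026 to 0.036 for Kcnab2, -0.10 to 0.022 for Kcnb2, -0.0088 to 0.10 for Kcnd2, -1.62 to 0.83 for Kcne2, -0.0038 to 0.078 for Kcnj10, -0.12 to 0.075 for Kcnj16, -0.063 to 0.078 for Kcnj3 and -0.012 to 0.10 for Kcnj4. They were -0.084 to 0.022 for Kcnj6, -0.046 to 0.73 for Kcnq1, -0.010 to 0.058 for Kcnq3, -0.074 to 0.10 for Kcnq5, -0.0069 to 0.048 for Kcnt1 and -0.25 to 0.13 for Kcnu1. Other alternatives turned the sign of Kcnj3 (0.0012 with limma-voom, 0.010 with 1 surrogate variable, 0.011 without m668 and m658, the choroid-rich mice), Kcnq5 (0.0019 with the surrogate variable), Kcnj6 (0.0056) and Kcnu1 (0.010), the last pair without those mice. The summed RPKM of the 21 subfamilies moved by less than 1 SD between scalings. No paired analysis was possible because each mouse has a number of its own in the labels, which name no litter. None of the 21 tested members under 10 CPM had an interval within a 1.2-fold difference, and the parts of depth and of spread between mice in this were not tested.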

Other observations

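A few further members, chosen after their values were seen, are known from cells other than neurons. Kcnk13 (THIK1), a leak channel known from microglia, was measured at 11.1, 10.3, 11.8 and 12.7 CPM in the PS19 mice and 13.7, 10.9, 15.1 and 13.2 CPM in the Adrb1-A187V;PS19 mice. Its highest values were those of the mutant mice m660 and m671, and its log2 fold change was 0.20 (95% interval -0.051 to 0.45). The 5 microglial markers summed to 356, 301, 265 and 415 CPM in the PS19 mice and to 325, 268, 382 and 401 CPM in the Adrb1-A187V;PS19 mice. Their part in the Kcnk13 values was not tested. Kcna3, a Kcna channel of microglia, lymphocytes and some neurons, was measured at 18.2, 20.1, 15.4 and 19.2 CPM in the PS19 mice and 16.5, 14.8, 15 and 17.8 CPM in the Adrb1-A187V;PS19 mice. Its log2 fold change was -0.18 (95% interval -0.41 to 0.037). Kcna5, known from vascular muscle and microglia, was measured at 4.16, 9.73, 5.57 and 6.93 CPM in the PS19 mice and 8.64, 9, 5.99 and 10.8 CPM in the Adrb1-A187V;PS19 mice. Its log2 fold change was 0.39 (95% interval -0.11 to 0.89), and the genotypes overlapped. With edgeR and the main filter neither gene had an unadjusted p under 0.05 in all 8 mice, but Kcna3 did without m665 or m658, and Kcna5 did without m668, without m660, without both m668 and m658, and in all 8 mice with no filter beyond 1 count.

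Paired genes of the ion-activated class spread unequally. Kcnt1 had a coefficient of variation of 4.61% over the 8 mice and Kcnt2, the other channel opened by sodium, one of 11%. The ratio of Kcnt2 to Kcnt1 in RPKM ran from 0.307 to 0.463, with both ends in PS19 mice. The summed level of the Kcnn family lay between 10.8 and 11.7 RPKM, while Kcnn1, Kcnn2 and Kcnn3 alone had coefficients of variation of 15%, 11.1% and 13.1%.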
